A study of Mus musculus with 2 samples.

Results

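The regions described here are 4590 peaks of 5-hydroxymethylcytosine (5hmC) from the list recorded for mouse embryonic stem (ES) cells kept with ascorbic acid (AA, vitamin C). A peak is a stretch of the genome in which more sequenced fragments were recovered than in its surroundings. The rule took peaks on chromosomes 1 to 19 that held 40 to 99 tags (aligned reads, kept once per position) and that had no peak of the other list within 5000 bp of either edge. It chose 4590 of the 57827 peaks of this list, out of 121661 peaks in both lists. They are called isolated peaks below. The tag count of one list and the peak positions of the other chose them, so the values drawn from these are descriptions and carry no test.

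The series set genomic DNA of ES cells of strain 129SvEv kept with 100 µM AA for 24 h against DNA of cells of the same strain whose label names no incubation. In both groups the 5hmC was tagged with biotin and the fragments that held it were pulled down and sequenced. There was 1 library per group and no input library, so there is no replicate spread and no test between groups. The header of each list names the run of the other sample (2 of 2 headers), so the lists are called AA-labelled and no-AA-labelled, and every direction between the lists turns round if the headers are right.

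5hmC is made when Tet dioxygenases oxidise 5-methylcytosine, a step on the way to the removal of DNA methylation. Ascorbic acid is a reductant known to raise the activity of these iron-dependent enzymes in cells. In ES cells 5hmC is known to lie in gene bodies, at enhancers and near some promoters of low activity, and its level at most sites is low. All positions are on mouse build mm9. No gene annotation or genome of that build was used here, so the peaks are given by position, with no gene names and no sequence.

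With duplicates taken out, 11907082 tags were kept for the AA-labelled library and 18398162 for the other, 1.55 times as many. The fragment length set by the peak caller was 229 bp and 165 bp. These differences go with the label and cannot be told apart from it. A region missing from a list did not pass the caller's cutoff in that library, which is not the same as holding no 5hmC.

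About 3 in 10 AA-labelled peaks of this tag range had no counterpart nearby, and the no-AA-labelled list held a like set. Of the 14998 AA-labelled autosomal peaks of 40 to 99 tags, 4590 were isolated, or 30.6% (95% Clopper-Pearson interval 29.9% to 31.3%). Another 8672 (57.8%) overlapped a no-AA-labelled peak by at least 1 bp and are the peaks compared with them below. The remaining 1736 (11.6%) had a no-AA-labelled peak within 5000 bp without overlap. With the lists exchanged and the same raw tag range, 4055 of 15024 no-AA-labelled peaks were isolated from the AA-labelled list, or 27.0% (26.3% to 27.7%), and 9139 (60.8%) overlapped. When the tag range was scaled to kept tags (61.8 to 154.5 tags), the exchanged share was 21.8%. These intervals cover counting error only, and peaks of 1 library are not replicates.

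The isolated share fell with the tag count up to about 70 tags and was nearly level from there. It was 51.5% (50.7% to 52.3%) among AA-labelled peaks of 10 to 19 tags, 40.4% at 20 to 29 and 37.1% at 30 to 39. Inside the chosen range it went from 33.2% (32.0% to 34.4%) at 40 to 49 tags through 31.2% at 50 to 59 and 29.4% at 60 to 69 to 25.6% (23.3% to 27.9%) at 70 to 79. It was 26.0% at 80 to 89 tags and 25.6% (22.4% to 29.1%) at 90 to 99 tags, both inside the interval of the class before them. The no-AA-labelled list began higher, at 65.2% for 10 to 19 tags, and ended at 21.4% (17.9% to 25.3%) for 90 to 99. Over all tag counts, 22468 of 56365 AA-labelled autosomal peaks were isolated (39.9%), of which 17571 held fewer than 40 tags and 307 held at least 100. Over all tag counts the order of the lists turned round, since 26793 of 62108 no-AA-labelled autosomal peaks were isolated (43.1%). At the lower limit of the range, 250 isolated peaks held 39 tags and 243 held 40. At the upper limit, 9 held 99 tags and 10 held 100.

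**Figure D1:**
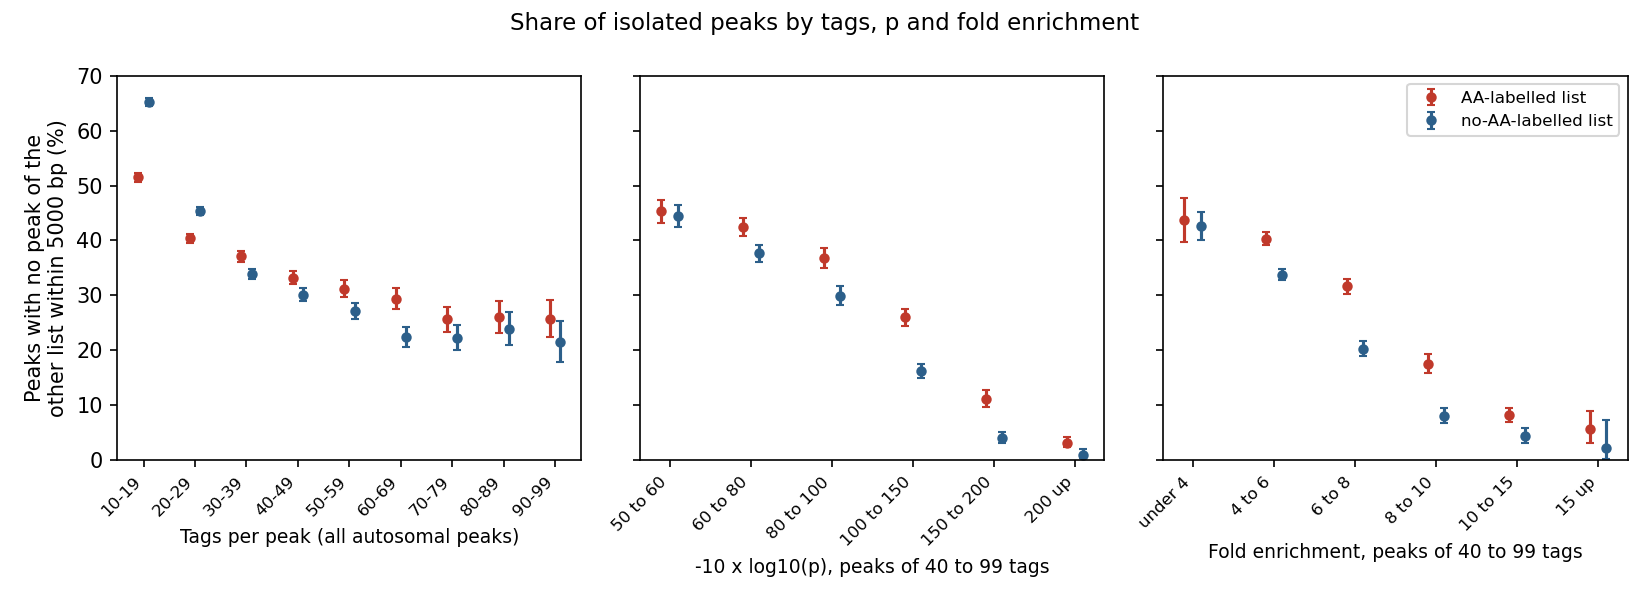
Share of peaks with no peak of the other list within 5000 bp (vertical axis, percent) for the AA-labelled list (red) and the no-AA-labelled list (blue), by tags per peak, by 10 times the −log10 of p and by fold enrichment. Points are shares and bars are 95% exact intervals; within the tag range the AA-labelled share fell from 45.3% in the lowest class of p score to 3.13% in the highest.

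By the caller's p the isolated peaks were weaker than the overlapping peaks of the same tag range. The score, 10 times the −log10 of the caller's Poisson p, had a median of 77.0 (quartiles 62.0 and 99.1) in them, against 50 at the authors' cutoff. In the overlapping peaks of the same tag range it was 114.0 (79.5 and 174.4). A p of at most 1e-10, a score of 100, was reached by 1113 isolated peaks (24.2%, 23.0% to 25.5%) and 5141 overlapping ones (59.3%, 58.2% to 60.3%), where all AA-labelled peaks of the range reached it in 43.9%. Beside all AA-labelled autosomal peaks, with a median score of 71.2 and 22.4% at a p of at most 1e-10, the isolated peaks were slightly above. A score under 60 was found in 949 isolated peaks (20.7%) and 697 overlapping peaks (8.04%). It was found in 14.0% of all AA-labelled peaks of the range and in 28.7% of all AA-labelled autosomal peaks.

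Fold enrichment, the caller's ratio to local background in the same library, was lower in the isolated peaks. Its median was 5.57 (quartiles 4.75 and 6.69, range 2.88 to 19.62) against 7.04 (5.46 and 9.54, range 2.86 to 38.82) in the overlapping peaks, a ratio of 0.791. The middle ranges of both groups overlap. A fold of at least 10 was reached by 164 isolated peaks (3.57%, 3.05% to 4.15%) and by 1903 overlapping ones (21.9%, 21.1% to 22.8%), beside 14.0% of all peaks of the tag range. Of the isolated peaks, 4008 (87.3%) lay under 7.78, the median fold of all AA-labelled autosomal peaks. So did 5092 (58.7%) of the overlapping ones and 71.1% of all AA-labelled peaks of the tag range. Against the whole list the isolated peaks were high in tags by the rule, slightly high in score and low in fold. The median fold of AA-labelled autosomal peaks itself fell with tags, from 8.91 at 10 to 19 tags to 5.49 at 90 to 99.

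The same order was seen within each class of tags. At 40 to 49 tags the median fold was 5.92 in 2000 isolated peaks and 7.53 in 3263 overlapping ones. At 50 to 59 tags it was 5.60 and 7.30, at 60 to 79 tags 5.21 and 6.66, and at 80 to 99 tags 5.01 and 6.15. The peaks with a no-AA-labelled peak nearby but no overlap were like the isolated ones, with a median fold of 5.49 (4.74 and 6.50) and a median score of 73.3. The isolated peaks of the no-AA-labelled list were also of lower fold than the overlapping ones there, at 4.93 (4.27 and 5.77) against 6.09 (4.90 and 7.99), a ratio of 0.810. The lower fold was therefore found in both lists.

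The isolated peaks were slightly longer and thinner. Their median length was 1721 bp (quartiles 1460 and 2069 bp, range 753 to 3917 bp) against 1634 bp (1379 and 1960 bp) in the overlapping peaks, a ratio of 1.05. A length over 2000 bp was found in 1337 isolated peaks (29.1%, 27.8% to 30.5%) and 1976 overlapping peaks (22.8%, 21.9% to 23.7%). It was found in 25.1% of all AA-labelled peaks of the tag range and in 8.87% of all AA-labelled autosomal peaks. At 80 to 99 tags the median lengths were 2546 bp and 2295 bp. In the no-AA-labelled list the median lengths over the whole tag range were 1289 bp and 1287 bp, and at 80 to 99 tags they were 2073 bp and 1911 bp. In each of the 4 classes of tags the isolated peaks had the longer median in both lists. Length depends on the fragment length each library was given, so lengths are compared within a list only.

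Tag density followed from tags and length. Per kb and 1000000 kept tags, the median isolated peak had 2.58 tags (quartiles 2.30 and 2.96) and the median overlapping peak 2.83 (2.47 and 3.29). No isolated peak passed 6.28, while the densest overlapping peak reached 18.2. The summit, the point of most tags, lay a median of 16.4% of the peak length from the middle in the isolated peaks and 14.4% in the overlapping ones. The overlapping peaks had in the other list a partner with a median of 49 tags (quartiles 37 and 65, lowest 13), and 2712 of 8672 partners (31.3%, 30.3% to 32.3%) held fewer than 40 tags. For the isolated peaks no such count is in the lists, so no ratio between the libraries can be given.

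**Figure D2:**
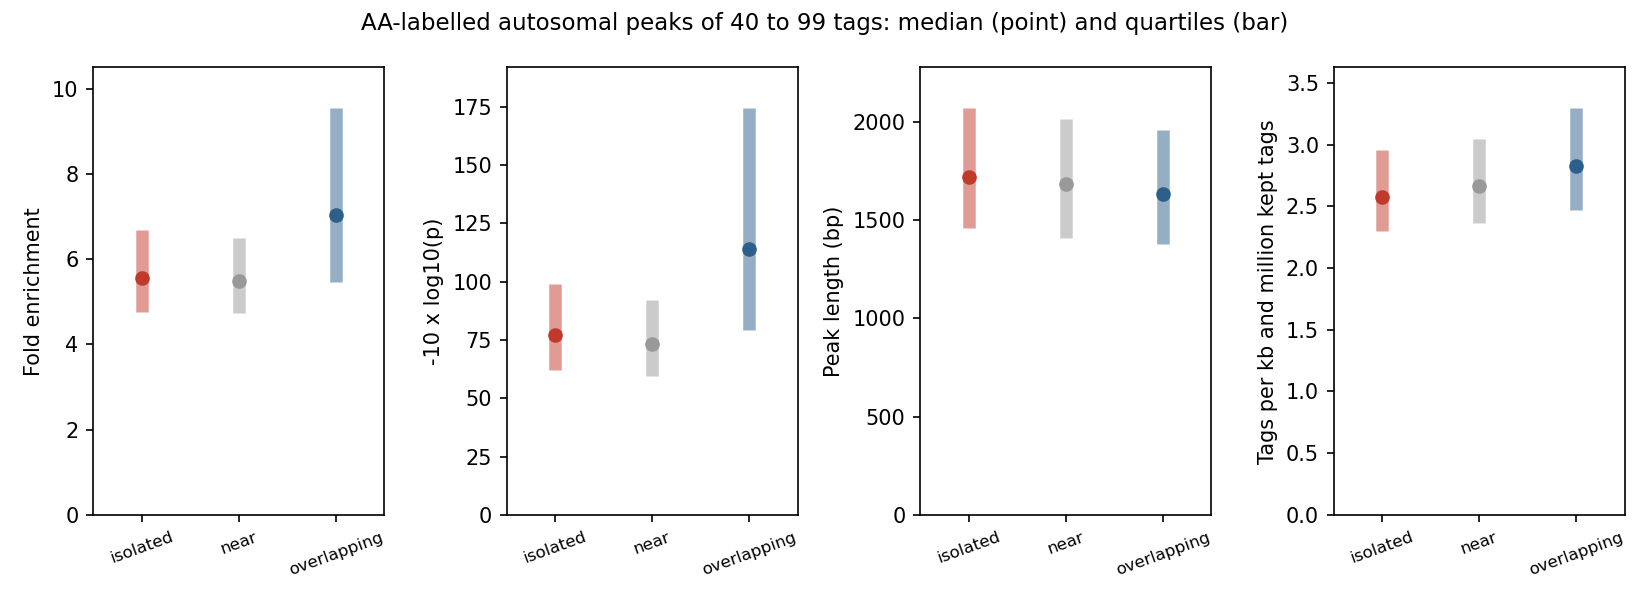
Fold enrichment, 10 times the −log10 of p, peak length and tag density (vertical axes) of AA-labelled autosomal peaks of 40 to 99 tags that were isolated (red), had a no-AA-labelled peak within 5000 bp without overlap (grey) or overlapped one (blue). Points are medians and bars span the quartiles over peaks; the isolated and near peaks lie together at folds of 5.57 and 5.49, below the 7.04 of the overlapping peaks.

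Among themselves the isolated peaks ran from compact peaks of high fold to long peaks of low fold. Across the 4590 peaks fold went with shorter length (Spearman rho -0.35, Pearson r -0.35) and with fewer tags (rho -0.26, r -0.24). These run across peaks of 1 library, and all 3 quantities come from the same tags. The 1143 peaks of highest fold (6.70 to 19.62) had a median of 47 tags in 1505 bp and a score of 110.3. The 1157 of lowest fold (2.88 to 4.75) had 58 tags in 1923 bp and a score of 60.8. The median distance to the nearest no-AA-labelled peak was nearly the same in both, at 12927 bp and 12954 bp. The link of high fold with short length was not particular to the isolated peaks. Overlapping peaks of fold at least 10 had a median of 50 tags in 1334 bp, beside 54 tags in 1634 bp in all overlapping peaks.

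The isolated peak of highest fold lay on chromosome 6 (69867694 to 69868742), with 45 tags (95% Poisson interval 32.8 to 60.2), a fold of 19.62 and a score of 212.7. Its nearest no-AA-labelled peak was 15387 bp away. Next were peaks of 40, 42 and 40 tags on chromosomes 10 (28749690 to 28750873, 18.34-fold), 2 (141056366 to 141057721, 17.79-fold) and 12 (64121113 to 64122099, 17.47-fold). These 10 peaks held 40 to 48 tags. The tenth place was a tie at 15.64-fold with a peak of 57 tags on chromosome 4 (131844743 to 131845504), placed after it by chromosome name. The tenth, on chromosome 14 (92076025 to 92076959), had 48 tags at 15.64-fold and the highest score of the 10, 264.0, and was the only one of them with a no-AA-labelled peak within 10000 bp, at 5676 bp.

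The other 5 of these 10 were on chromosomes 7 (111114928 to 111116203, 16.85-fold), 18 (31440076 to 31441045, 16.30-fold), 16 (71922460 to 71923727, 16.09-fold), 1 (18235220 to 18236500, 15.88-fold) and 9 (18583538 to 18584782, 15.88-fold). Their nearest no-AA-labelled peaks were 19098, 60968, 52701, 51243 and 79930 bp away. For comparison, the overlapping peak of highest fold in the tag range, on chromosome 13 (77578040 to 77578446), held 88 tags at 38.82-fold. The next of that group, on chromosome 14 (86598666 to 86599243), held 87 tags at 34.37-fold, and the third to the fifth, on chromosomes 18 (40467394 to 40468204), 2 (7842949 to 7844004) and 6 (12621471 to 12622360), were at 23.71-fold to 25.65-fold. These 5 overlapping peaks were thus all above the highest isolated peak.

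The densest isolated peaks were not all of high fold. The densest was on chromosome 4 (131844743 to 131845504), with 57 tags in 762 bp, or 6.28 tags per kb and 1000000 kept tags, at 15.64-fold. The second, on chromosome 8 (119825228 to 119826488), held 85 tags at 5.66 per kb and 1000000 kept tags with a fold of only 3.89. The third to the fifth were on chromosomes 8 (90323981 to 90324822, 4.84-fold), 12 (112539568 to 112540916, 4.73-fold) and 4 (141299000 to 141299979, 9.78-fold). The 5 densest peaks thus had folds from 3.89 to 15.64. Fold is set against the caller's background around the peak, per the file headers over 10000 bp, and that background is not in the lists.

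Of the 9 isolated peaks with 99 tags (80.5 to 120.5), the 5 that come first by chromosome name were 2175 to 2967 bp long. They lay on chromosomes 1 (155260281 to 155262907, and 184001659 to 184003833), 12 (110270472 to 110273190), 15 (97109440 to 97112145) and 16 (93981488 to 93984454). Their folds were 4.88, 4.72, 6.18, 3.39 and 3.66 and their scores 108.9, 51.4, 65.7, 50.4 and 57.6. Only the first of these 5 passed a p of 1e-10. The 414 isolated peaks of 80 to 99 tags had a median score of 79.0, beside 75.2 for those of 40 to 49 tags.

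Most isolated peaks were within 20000 bp of the nearest no-AA-labelled peak. The median distance was 12686 bp (quartiles 8070 and 20848 bp). It was at most 10000 bp in 1688 peaks (36.8%), 10000 to 20000 bp in 1670 (36.4%), 20000 to 50000 bp in 1104 (24.1%) and over 50000 bp in 128 (2.79%). The median fold hardly moved over these classes, at 5.58, 5.46, 5.59 and 6.04. The highest class had an upper quartile of 7.88, against 6.63 to 6.69 in the others. Fold and distance had a Spearman rho of 0.01 and a Pearson r of 0.10 across the 4590 peaks.

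The 5000 bp limit cut through a continuous range. The 3 peaks just inside it, on chromosomes 4 (149069796 to 149071542), 5 (114070278 to 114072292) and 8 (109767857 to 109770126), were 5003, 5006 and 5006 bp from the other list, at folds of 6.13, 5.72 and 5.59. The 3 just outside, on chromosomes 1 (137443667 to 137446605), 7 (71045867 to 71047080) and 14 (12697806 to 12699813), were 4997, 4993 and 4991 bp away, at folds of 5.42, 5.05 and 5.66.

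**Figure D3:**
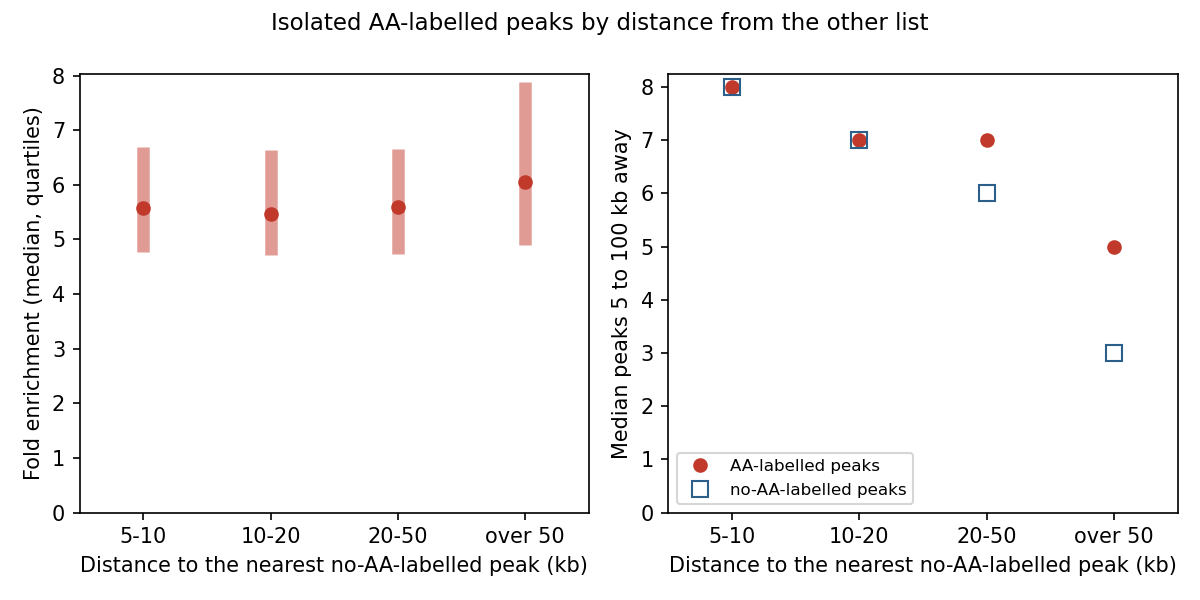
Isolated AA-labelled peaks by distance to the nearest no-AA-labelled peak (horizontal axis, kb): fold enrichment on the left (points are medians, bars span the quartiles) and the median number of peaks of each list 5 to 100 kb away on the right. Fold is near 5.5 in the first 3 classes and 6.04 beyond 50 kb, where the medians are 5 AA-labelled and 3 no-AA-labelled peaks. By itself, a larger distance leaves less room for no-AA-labelled peaks in the window.

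The most remote isolated peak lay on chromosome 12 (97748618 to 97750430), 275834 bp from the nearest no-AA-labelled peak and 275924 bp from the nearest other AA-labelled peak. It held 53 tags (39.7 to 69.3) at 10.92-fold with a score of 177.0. The next was on chromosome 7 (68327073 to 68328976), 208954 bp away, with 49 tags at 7.62-fold. It was followed by chromosome 6 (46237233 to 46238516) at 183004 bp and 13.10-fold, chromosome 18 (46022559 to 46024040) at 164623 bp and 10.43-fold, and chromosome 2 (113377965 to 113380040) at 152550 bp and 6.47-fold. The peaks on chromosomes 12 and 6 had no peak of either list within 100 kb, while the other 3 had 1 or 2 AA-labelled peaks there and no no-AA-labelled ones.

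Outside the 5000 bp window the surroundings of the isolated peaks held as many peaks of the other list as of their own. Counting peaks with a midpoint within 100 kb and none of those within 5000 bp, the median was 7 AA-labelled (quartiles 5 and 9) and 7 no-AA-labelled peaks (5 and 9). Around the overlapping peaks it was 6 (4 and 9) and 7 (4 and 9). The mean number of no-AA-labelled neighbours was 7.26 around the isolated and 6.67 around the overlapping peaks, a log2 ratio of 0.12. This direction was not stable: the log2 ratio was 0.0035 with a distance limit of 10000 bp and -0.23 with 20000 bp. A wider limit by itself removes neighbours of the isolated peaks. With only no-AA-labelled peaks of a p of at most 1e-10 in use, the log2 ratio was -0.29. That choice also redrew both groups, with 10934 peaks then isolated. Summed over peaks, AA-labelled neighbours were 1.01 times as many as no-AA-labelled ones around the isolated peaks, 0.940 around the overlapping ones and 0.937 around all AA-labelled autosomal peaks. With the lists exchanged, no-AA-labelled neighbours were 1.04 times as many as AA-labelled ones around isolated no-AA-labelled peaks. That ratio was 1.08 around the overlapping and 1.09 around all no-AA-labelled autosomal peaks. AA-labelled neighbours were thus relatively more frequent around the isolated peaks of both lists. No peak of the other list within 100 kb was found for 15 isolated peaks (0.327%, 0.183% to 0.538%) and for 202 overlapping peaks beside their partners (2.33%, 2.02% to 2.67%). It was 1.46% in all AA-labelled peaks of the tag range and 2.04% in all AA-labelled autosomal peaks. The own list showed the same order. Counted in the same way, no AA-labelled peak was found for 11 isolated peaks (0.240%) and 256 overlapping ones (2.95%). The tag range had 1.79% and all AA-labelled autosomal peaks 2.80%.

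The isolated peaks were isolated from the other list and not always from their own. Another AA-labelled peak lay within 5000 bp of 652 of them (14.2%, 13.2% to 15.2%), against 1344 (15.5%, 14.7% to 16.3%) of the overlapping peaks. That share was 17.5% in all AA-labelled peaks of the tag range and 16.1% in all AA-labelled autosomal peaks, so the isolated peaks were slightly below both. Within 1000 bp it was 76 isolated peaks (1.66%), beside 2.15% of the tag range. Their median distance to the next AA-labelled peak was 10340 bp, against 12022 bp for the overlapping peaks. The isolated peaks of fold at least 10 had fewer neighbours, with a median of 5 AA-labelled and 6 no-AA-labelled ones. The overlapping peaks of fold at least 10 had 3 and 4.

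The isolated peaks with most neighbours lay together on chromosome 12. The first (12819481 to 12822062) had 21 neighbours in its own list and 17 in the other, the second (12827918 to 12829533) 20 and 16, and the third (12789219 to 12790672) 18 and 15. These held 74, 52 and 44 tags at folds of 6.36, 4.34 and 4.51. All 3 had a no-AA-labelled peak within 8697 to 10616 bp, in a region in which both lists had many peaks.

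Most isolated peaks were the only isolated peak in their gap in the no-AA-labelled list, and the rest shared one. The 4590 peaks lay in 3785 stretches free of no-AA-labelled peaks, with a median length of 45.9 kb (quartiles 30.6 and 68.8 kb). In 3141 stretches there was 1 isolated peak, in 524 there were 2, in 89 there were 3, in 21 there were 4 and in 10 there were 5. The no-AA-labelled isolated peaks lay in 3410 such stretches of the AA-labelled list, of which 2875 held 1 and 2 held 5.

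The stretches with 5 isolated peaks were named after their values were seen. Of these 10, 3 were on chromosome 11, at 35658186 to 35821492, 67977276 to 68111702 and 95913914 to 96078051. The others were on chromosomes 2 (33578587 to 33783072), 4 (141685873 to 141787223), 8 (124543119 to 124642059), 9 (110802697 to 110903672), 10 (59222362 to 59374850), 14 (61311193 to 61398382) and 17 (29960961 to 30097835). On chromosome 8 all 5 held at least 71 tags (up to 89), at folds of 4.07 to 5.94, in a stretch of 98.9 kb with no other AA-labelled peak. No isolated peak of these 10 stretches passed a fold of 7.71.

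Per Mb the isolated peaks were spread unevenly. Of 2416 autosomal windows of 1 Mb with an AA-labelled peak, 2214 held one of the tag range and 1310 held an isolated peak. Exactly 1 isolated peak was held by 395 windows and at least 5 by 371. Those 371 windows held 2649 of the 4590. The part that the spread of all peaks of the tag range has in this was not tested. The fullest windows, also chosen after their values were seen, began at 114 Mb on chromosome 5 with 16 isolated among 29 peaks of the tag range, and at 120 Mb on chromosome 10 with 15 among 22. In the first, 10 of 23 no-AA-labelled peaks of the range were isolated too. In the second, 1 of 11 was.

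The isolated share differed between chromosomes. It was lowest on chromosome 1, at 340 of 1499 peaks of the tag range (22.7%, 20.6% to 24.9%), then on chromosome 14 (24.9%, 21.4% to 28.6%) and chromosome 8 (26.9%, 24.5% to 29.4%). It was highest on chromosome 11, at 352 of 935 (37.6%, 34.5% to 40.8%), chromosome 19 (37.4%, 32.7% to 42.3%) and chromosome 12 (36.7%, 32.8% to 40.8%), and the median autosome had 30.9%. The log2 ratio of the share on chromosome 1 to that on all autosomes was -0.43, and -1.33 with a distance limit of 20000 bp. The intervals of 12 of the 19 autosomes covered the share of all. Chromosomes 1 and 8 had the most no-AA-labelled peaks per Mb, 32.4 and 34.6, while chromosome 14 had 24.5 and chromosome 11 had 26.5. The part of peak density in these shares was not tested.

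With the lists exchanged the shares by chromosome had another order in places. The AA-labelled share was higher on 16 of 19 autosomes and its interval lay above that of the no-AA-labelled share on 4. These were chromosome 3 (31.9%, 28.5% to 35.4%, against 19.7%, 16.6% to 23.0%), chromosome 12 (36.7% against 26.6%), chromosome 13 (30.8% against 22.5%) and chromosome 18 (32.1% against 23.2%). On chromosomes 1, 8 and 17 the AA-labelled share was the lower one, at 22.7% against 23.7%, 26.9% against 28.7% and 30.8% against 30.9%, with intervals that overlapped. Per Mb, isolated AA-labelled peaks were densest on chromosome 11 (2.89), chromosome 8 (2.66) and chromosome 19 (2.45) and thinnest on chromosome 14 (1.16). The median fold of the isolated peaks ranged little, from 5.41 on chromosome 11 to 5.87 on chromosome 10.

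**Figure D4:**
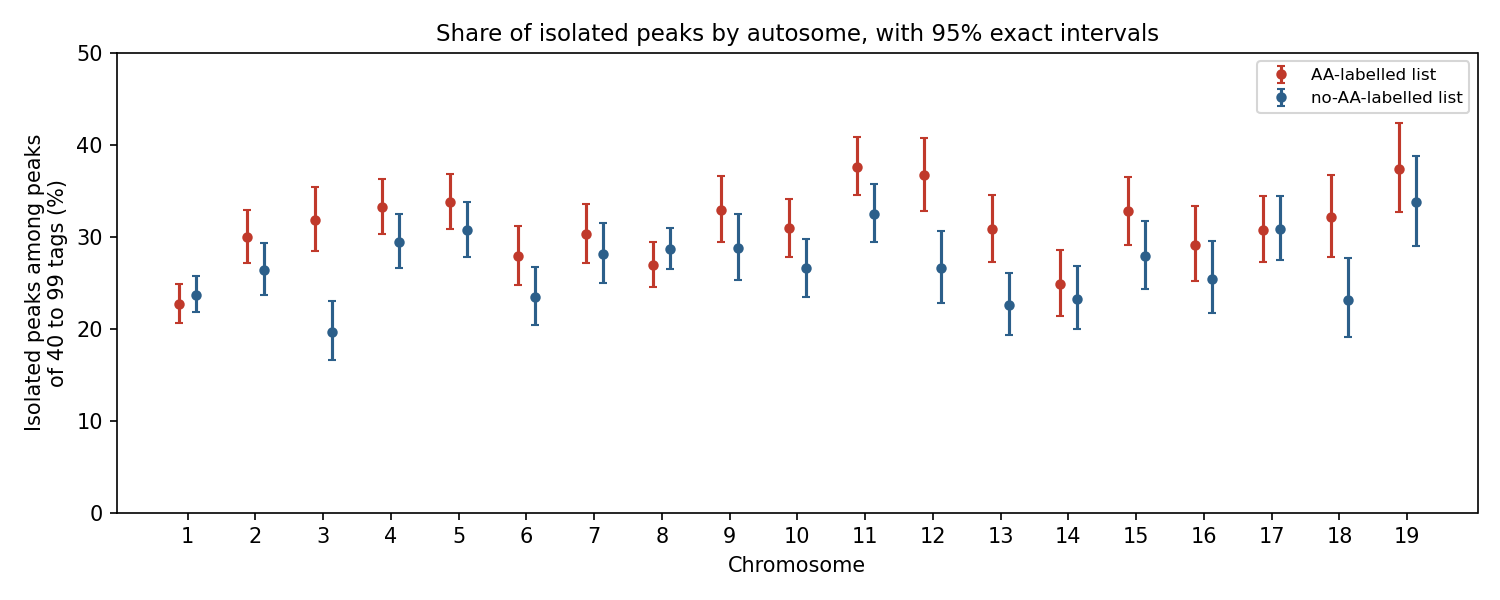
Isolated peaks among peaks of 40 to 99 tags (vertical axis, percent) on each autosome for the AA-labelled list (red) and the no-AA-labelled list (blue). Points are shares and bars are 95% exact intervals; the AA-labelled share runs from 22.7% on chromosome 1 to 37.6% on chromosome 11, and the intervals of the lists are apart on chromosomes 3, 12, 13 and 18.

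The isolated share fell further with the caller's p and fold than with tags. Among AA-labelled peaks of the tag range it was 45.3% (43.1% to 47.4%) at a score of 50 to 60, 42.5% at 60 to 80, 36.7% at 80 to 100, 26.0% at 100 to 150, 11.1% (9.59% to 12.7%) at 150 to 200 and 3.13% (2.33% to 4.12%) from 200 up, where 49 of 1564 peaks were isolated. By fold it went from 43.7% (39.8% to 47.8%) under 4 to 17.5% at 8 to 10, 8.13% at 10 to 15 and 5.56% from 15 up, where 15 of 270 were isolated. At the same scores, shares in the no-AA-labelled list began at 44.4% (42.4% to 46.4%) and ended at 0.973% (0.421% to 1.91%), or 8 of 822 peaks. In each class of score from 60 up, and in the classes of fold from 4 to 15, the AA-labelled share was the higher one and the intervals were apart. Score and fold are each library's own, so the same score does not stand for the same amount of 5hmC in both.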

How the data were processed

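Each of the 2 libraries gave 1 peak list. Per the submitters' processing notes, the authors used BWA 0.5.9-r16 for alignment, build mm9 and MACS 1.4.2 for peaks. Peaks were called on each library alone with no control, at a p cutoff of 1e-05 and with 1 tag of 101 bp kept per position, per the file headers. Tag counts were deposited as whole numbers without scaling. The authors' caller also gave, within each library, −log10 p-values (times 10) and fold enrichment (a ratio to local background).

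Distance was the start of one peak minus the end of the other, 0 where they overlap. Density was tags divided by kb of peak and by kept tags in units of 1000000. Distances and neighbour counts were tested on simulated peaks against a direct search. Intervals are exact (Clopper-Pearson, Poisson), at 95%, and cover counting error only. Without molecular identifiers, tags may not all be independent molecules. Mean neighbour counts stand in the alternatives, since the planned medians were equal.

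Named were the 10 isolated peaks of highest fold, the 5 each of highest density, most tags and largest distance, the 3 with most neighbours, the 3 on each side of the distance limit and the 5 overlapping peaks of highest fold. Equal values were ordered by chromosome name and start. The members and lists were chosen with earlier results of these data known. The planned sequence features and gene lists were not used here, for want of a genome and annotation of mm9. Calculations used Python 3.11.15, pandas 2.3.3, NumPy 2.4.6, SciPy 1.17.1 and matplotlib 3.10.9.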

Additional observations from a re-analysis of the deposited data

How the results depend on the processing

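The number of isolated peaks (4590) and their share (30.6%) follow the limits set: 5921 and 39.5% at 1000 bp, 2902 and 19.3% at 10000 bp, 1232 and 8.21% at 20000 bp, 8095 and 33.1% for 30 to 99 tags, 2590 and 28.9% for 50 to 99 tags, and 2481 and 19.7% when a p of 1e-10 or less replaced the tag range. With only no-AA-labelled peaks of a p of at most 1e-10 counted they were 10934 and 72.9%. With the lists exchanged the share was 27.0%, or 21.8% with tags scaled. Leaving out peaks with another AA-labelled peak within 5000 bp, a choice made after seeing the data, gave 3938 and 26.3%. The log2 ratios of isolated to overlapping medians kept their sign in fold, length and density under each alternative run. For fold, -0.34 became -0.32 at 20000 bp, -0.32 for 30 to 99 tags and -0.65 with the strict no-AA-labelled peaks. For length, 0.07 became 0.057, 0.020 and 0.14 under these, 0.13 for 50 to 99 tags and 0.10 for 40 to 49 tags. For density, -0.13 became -0.11 for 30 to 99 tags, -0.15 for 50 to 99, -0.093 for 40 to 49 and -0.22 with the strict peaks. The log2 ratio of mean no-AA-labelled neighbours, 0.12, became 0.14 at 1000 bp and 0.0035 at 10000 bp, and turned to -0.23 at 20000 bp, where the wider limit itself removes neighbours, and to -0.29 with the strict peaks, where the cause was not tested. The log2 ratio of the share on chromosome 1 to that on all autosomes, -0.43, became -1.33 at 20000 bp, and the cause was not tested. Of all alternatives, 20 values stayed within the interval around the main value or, for the number of peaks (5921 and 3938), within 1.5 times it. Most did not: 31 moved outside these limits, and 2, the log2 ratios of neighbours given above, changed sign. Sequence features were not run. No paired analysis was possible because there was a single library per group, and none could be left out.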

Other observations

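The rule left out chromosome X. By the same tag range and distance, 12 of 333 AA-labelled peaks there were isolated, or 3.60% (95% Clopper-Pearson interval 1.88% to 6.21%), against 30.6% (29.9% to 31.3%) on the autosomes. In the no-AA-labelled list 16 of 314 were isolated, or 5.10% (2.94% to 8.14%), against 27.0% (26.3% to 27.7%). The 12 peaks held 41 to 83 tags at folds of 4.28 to 13.23, with a median of 6.42. Chromosome X had 10.3 no-AA-labelled peaks per Mb, fewer than any autosome, and its AA-labelled peaks of the tag range had a median fold of 10.74, above that of any autosome. At a distance of 20000 bp the AA-labelled shares were 1.50% (0.489% to 3.47%) on chromosome X and 8.21% (7.78% to 8.67%) on the autosomes.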
